A study of Mus musculus with 4 samples.

Results

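Chemokine receptor transcripts were compared between subsets of liver natural killer (NK) cells from C57BL/6 mice. The set holds 9 receptor genes (Cxcr3, Cxcr4, Cxcr6, Ccr1, Ccr2, Ccr7, Ccr8, Cx3cr1 and Ccrl2), found by gene symbol, and all 9 were present among the 21025 gene rows of the data. TRAIL+ cells (2 libraries) were sorted as positive for the death ligand TRAIL and negative for the integrin CD49b. CD49b+ cells (2 libraries) had the opposite profile, and both subsets lacked the T-cell receptor beta chain and carried NK1.1 and NKp46. The sample labels name no mutation or treatment, and they give no age, number or pooling of animals. Nor do they say whether both libraries of a subset are from different mice. The p-values therefore reflect only how far these libraries differ, which may be technical.

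Chemokine receptors are G protein-coupled receptors that read gradients of small secreted chemokines and, through the inhibitory G protein Gi, turn on integrins and cell movement. They help to set where a lymphocyte resides. CXCR6 binds CXCL16, which is displayed in the liver sinusoids, CXCR4 binds CXCL12, which holds cells in the bone marrow, and CX3CR1 binds fractalkine and marks circulating mature NK cells and patrolling monocytes. CCRL2 is an atypical receptor that binds chemerin and does not signal as the others do.

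The promoters of the 5 members with the largest differences are shown because these genes lie at the opposite ends of the comparison. The sequences are from RefSeq on GRCm38.p6, a later build than the mm9 of the deposited data, and run 5′ to 3′ on the strand of each gene, from 250 bases before to 50 bases after the start site. Capitals mark CG dinucleotides.
Cxcr6 (chr9:123806227-123806526, plus strand): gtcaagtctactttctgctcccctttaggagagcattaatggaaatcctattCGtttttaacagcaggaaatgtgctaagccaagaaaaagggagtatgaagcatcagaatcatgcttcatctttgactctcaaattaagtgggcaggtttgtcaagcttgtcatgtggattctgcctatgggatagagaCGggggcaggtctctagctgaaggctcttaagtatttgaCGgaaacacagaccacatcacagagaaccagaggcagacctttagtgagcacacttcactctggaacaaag
Cxcr3 (chrX:101734098-101734397, minus strand): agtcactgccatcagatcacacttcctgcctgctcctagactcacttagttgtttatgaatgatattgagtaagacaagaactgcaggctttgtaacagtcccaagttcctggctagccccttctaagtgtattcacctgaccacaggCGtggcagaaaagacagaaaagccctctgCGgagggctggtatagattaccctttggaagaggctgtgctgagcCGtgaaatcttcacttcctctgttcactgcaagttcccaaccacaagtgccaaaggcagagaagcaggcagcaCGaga
Ccr8 (chr9:120091883-120092182, plus strand): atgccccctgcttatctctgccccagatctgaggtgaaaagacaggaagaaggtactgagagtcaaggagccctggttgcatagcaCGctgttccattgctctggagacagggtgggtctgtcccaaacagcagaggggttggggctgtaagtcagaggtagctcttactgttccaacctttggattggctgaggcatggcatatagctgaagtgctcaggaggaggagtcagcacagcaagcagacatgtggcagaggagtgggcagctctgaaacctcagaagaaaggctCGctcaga
Cxcr4 (chr1:128592250-128592549, minus strand): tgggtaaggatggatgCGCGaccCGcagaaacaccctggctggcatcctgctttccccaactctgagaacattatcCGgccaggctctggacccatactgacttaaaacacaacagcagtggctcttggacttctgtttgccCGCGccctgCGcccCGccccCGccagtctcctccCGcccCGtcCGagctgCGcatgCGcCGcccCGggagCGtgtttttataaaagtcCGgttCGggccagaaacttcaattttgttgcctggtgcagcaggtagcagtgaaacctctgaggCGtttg
Cx3cr1 (chr9:120068247-120068546, minus strand): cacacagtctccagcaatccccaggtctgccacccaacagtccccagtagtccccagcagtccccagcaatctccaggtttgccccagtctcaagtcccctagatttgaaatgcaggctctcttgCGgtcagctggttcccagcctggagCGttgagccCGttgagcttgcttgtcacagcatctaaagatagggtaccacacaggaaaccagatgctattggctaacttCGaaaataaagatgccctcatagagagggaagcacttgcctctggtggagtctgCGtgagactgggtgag

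The promoter of Cxcr4 held 20 CG dinucleotides, whereas those of Cxcr6, Cxcr3, Ccr8 and Cx3cr1 held 3, 4, 2 and 5. The median over all 32851 promoters of the same length was 7. The table matched 8 of the 9 members, and Ccr7 had no match. On both strands of these promoters, 4 motifs were looked for: GGTGTGA, bound by T-box factors such as T-bet and Eomes; CACCTG, an E-box bound by Zeb2; TTANGTAA, bound by Nfil3; and TGTGGTT, bound by Runx factors. They occurred in 3.98%, 20.2%, 2.32% and 5.27% of all promoters. Cxcr3 had CACCTG at position -116 and TGTGGTT on the opposite strand at position 11, counted from the start site. Ccrl2, which has 3 listed promoters that overlap in series, had CACCTG in the first of them and GGTGTGA on the opposite strand in the other 2, which share 1 match. The other 6 matched members had none of these letters in this window, and a match is a description, not a site.

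The reads behind the RPKM, worked out from its steps, numbered 3786497 to 4232967 a library. At that depth 7.57 to 8.47 reads gave 1 RPKM to a 2000-base gene. RPKM scales reads by gene length and library depth, so levels can be set side by side between genes. The gate genes followed the labels: Tnfsf10, which encodes TRAIL, stood at 208 and 189 RPKM in TRAIL+ and 7.26 and 6.94 in CD49b+ cells, and Itga2, which encodes CD49b, at 5.26 and 1.55 in TRAIL+ and 52.1 and 37.0 in CD49b+ cells. Ncr1 (NKp46) and Klrb1c (NK1.1) stood at 901 to 1253 RPKM in every library. Of 6 other NK markers tested, led by Gzma and Nkg7, only Prf1, which encodes perforin, was called, and it was lower in TRAIL+ cells. Summed neutrophil markers (7 genes, S100a9 and Retnlg the most abundant) were 26.5 and 4.84 RPKM in TRAIL+ replicates 1 and 2 and 29.4 and 0.644 RPKM in CD49b+ replicates 1 and 2. Summed hepatocyte markers (7 genes, led by Alb and Fabp1) were 23.7 and 4.76 RPKM in TRAIL+ and 31.2 and 1.80 RPKM in CD49b+ replicates 1 and 2, so both sums were higher in replicate 1 of each subset. Summed B-cell markers (7 genes, led by Cd79b and Cd79a) overlapped between the subsets and were also higher in replicate 1 of each. Their sums were 22.3 and 15.8 RPKM in TRAIL+ and 23.8 and 12.3 RPKM in CD49b+ replicates 1 and 2.

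The sums of some other marker lists did not overlap between the subsets, nor did the values of 46.8% of all tested genes. The part of these markers in the receptor results was not tested. Mast cell and basophil markers (6 genes, led by Kit and Cpa3, neither of them called) summed to 7.47 and 10.7 RPKM in TRAIL+ and 13.3 and 13.7 RPKM in CD49b+ libraries, and Fcer1a had 0 reads. Markers of other innate lymphoid cells (6 genes, led by Gata3 and Il7r, which NK cells also express) summed to 60.5 and 63.4 RPKM in TRAIL+ and 39.6 and 43.4 RPKM in CD49b+ libraries. Of these, Il7r, the interleukin-7 receptor gene, was called higher at 25.6 and 32.6 RPKM in TRAIL+ and 9.10 and 13.9 RPKM in CD49b+ libraries (log2 fold change 1.28 ± 0.25, limma adjusted p = 0.0392), and Il23r had 0 reads. Il7r lost its call without CD49b+ replicate 1 (adjusted p = 0.256), without CD49b+ replicate 2 (0.0553), with no minimum level (0.0755) and with median scaling (0.0510), within a range of 0.000586 to 0.256. Endothelial markers (7 genes) summed to 55.5 and 46.1 RPKM in TRAIL+ and 44.0 and 41.7 RPKM in CD49b+ libraries, mostly from Pecam1, which NK cells also carry. Pecam1 itself overlapped between the subsets and was not called (log2 fold change 0.16 ± 0.17, limma adjusted p = 0.739). Eng, the endoglin gene, was called higher at 2.47 and 3.09 RPKM in TRAIL+ and 0.132 and 0.284 RPKM in CD49b+ libraries (1.64 ± 0.24, limma adjusted p = 0.0145), tested only through the TRAIL+ libraries and not called without CD49b+ replicate 1 (0.0656, range 0.00140 to 0.0656). Tek and Clec4g had 0 reads.

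The subsets carried different chemokine receptor transcripts. In TRAIL+ cells, Cxcr6, Cxcr3 and Ccr8 were higher than in CD49b+ cells, and Cxcr4, Cx3cr1 and Ccr2 were lower. Ccrl2 and Ccr7 did not pass the test, and Ccr1 was too low to be tested. Of all 10047 genes tested, 4.76% were called higher and 3.86% lower in TRAIL+ cells (8.62% in all, limma, adjusted p threshold 0.05). Of the 8 members tested, 3 were higher, 3 were lower and 2 were not called. Ccr8 and Cx3cr1 met the minimum of 1 RPKM in 2 libraries only through the subset in which each was high. In bulk RNA, fewer cells with a transcript and less transcript per cell cannot be told apart.

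**Figure D1:**
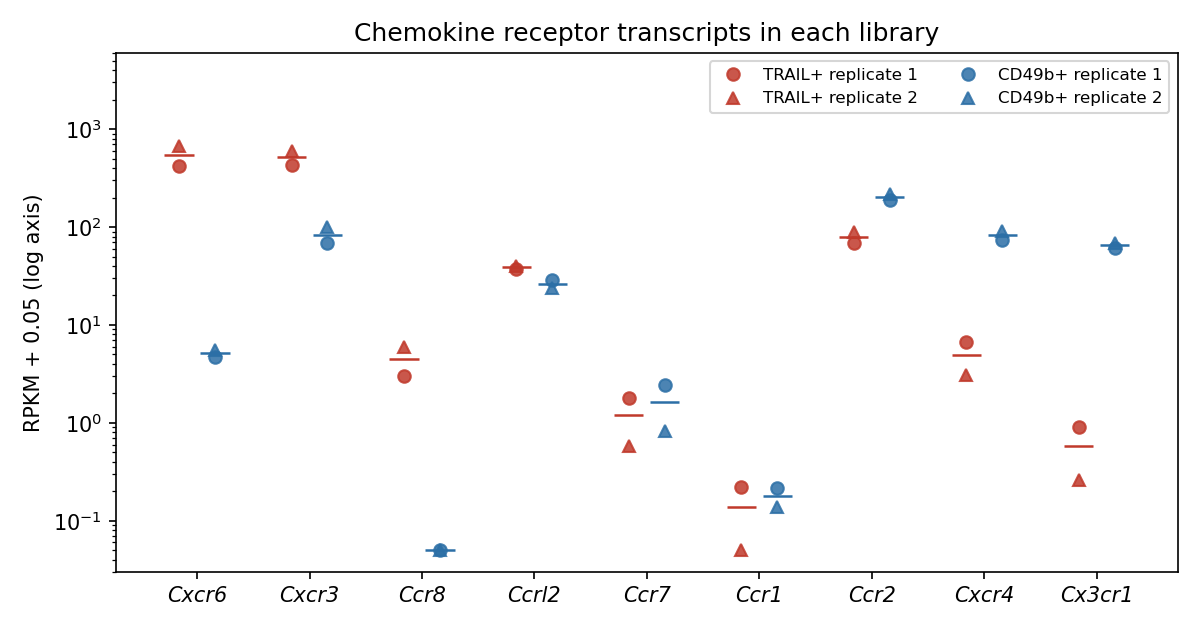
RPKM of the 9 receptor genes in each library (log axis, 0.05 added so that 0 can be drawn). TRAIL+ libraries are red and CD49b+ libraries blue, circles are replicate 1, triangles replicate 2 and lines the mean of 2 libraries. Cxcr6 stands at 419 and 676 RPKM in TRAIL+ and near 5 RPKM in CD49b+ cells, Cx3cr1 below 1 RPKM in TRAIL+ and above 61 RPKM in CD49b+ cells.

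Cxcr6 and Cxcr3, both receptors of liver-homing lymphocytes, made up most of the receptor transcripts of TRAIL+ cells. Cxcr6 stood at 419 and 676 RPKM in TRAIL+ and at 4.61 and 5.50 RPKM in CD49b+ libraries. The subsets did not overlap, and the CD49b+ level rested on 78 reads against 8087 in TRAIL+ cells. The log2 fold change was 6.46 ± 0.26 (SE, limma adjusted p = 0.000427), the 8th largest of 10047 in size, and the ratio of group means was 108-fold (82.9 to 134 with 1 library left out). In rank by RPKM, Cxcr6 was gene 115 and 83 of the TRAIL+ libraries and gene 7663 and 7264 of the CD49b+ libraries.

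Cxcr3, the receptor for the interferon-induced chemokines CXCL9 and CXCL10, stood at 434 and 604 RPKM in TRAIL+ and 67.9 and 99.2 RPKM in CD49b+ libraries. It was thus well expressed in both subsets, with no overlap, and its log2 fold change was 2.63 ± 0.27 (SE, limma adjusted p = 0.00451). The means of 519 ± 121 and 83.6 ± 22.1 RPKM (SD, n = 2 each) differed 6.21-fold. Within TRAIL+ cells the means of Cxcr6 and Cxcr3 differed by less than their spread, since Cxcr3 was the higher in replicate 1 and Cxcr6 in replicate 2.

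Ccr8, a receptor of skin-homing and regulatory T cells, was scarce. It stood at 2.97 and 5.93 RPKM in TRAIL+ libraries (14 and 26 reads) and had 0 reads in both CD49b+ libraries. A count of 0 allows up to 0.317 RPKM over the CD49b+ libraries (a floor of 3 reads over the group). Against that floor Ccr8 was 13.9-fold higher in TRAIL+ cells, a value that leaves out the counting error of the TRAIL+ reads. The exact binomial 95% lower limit of the ratio of reads was 10.8. On log2(RPKM + 1) the difference was 2.39 ± 0.33 (SE, limma adjusted p = 0.0114). The 1 added before the logarithm shrinks the fold change of genes near 0, and the value for Ccr8 was 5.43 with 0.1 added and 5.34 with voom on the reads.

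Most of the T-cell markers tested went the same way as these 3 receptors. Of 6 tested, 5 were higher in TRAIL+ cells (Cd3d, Cd3e, Cd8a, Cd4 and Bcl11b) and 1, Cd28, was lower. Over all genes tested, 4.76% were called higher and 3.86% lower. Cd8a, Cd4 and Bcl11b met the minimum level only through the TRAIL+ libraries. Cd8b1, too low to be tested, went the other way, with 1 read in TRAIL+ and 8 in CD49b+ libraries. Over the alternatives, Cd3e, Cd8a and Bcl11b kept their calls. Without CD49b+ replicate 1, Cd3d (adjusted p = 0.0507) and Cd28 (0.0580) lost theirs. Without CD49b+ replicate 2, Cd3d (0.0566), Cd28 (0.145) and Cd4 (0.0648) did. Cd3d also lost its call with no minimum level (0.0557), and Cd4 with 0.1 added in place of 1 (0.0636). Their adjusted p ranged over 0.000321 to 0.0566 for Cd3d, 0.000324 to 0.145 for Cd28 and 0.000939 to 0.0648 for Cd4. Their summed level over 7 genes was 86.5 and 142 RPKM in TRAIL+ and 38.9 and 44.6 RPKM in CD49b+ libraries. Cd3d, a subunit of the CD3 complex, led the list at 30.0 and 59.9 RPKM in TRAIL+ and 10.4 and 10.1 RPKM in CD49b+ libraries. Cd3e followed at 21.3 and 43.2 RPKM in TRAIL+ and 2.62 and 3.87 RPKM in CD49b+ libraries. Cd3g, another CD3 subunit gene, was not in the list or its sums. It stood far higher, at 812 and 1060 RPKM in TRAIL+ and 6.65 and 11.1 RPKM in CD49b+ libraries. Trac, Trbc1 and Trbc2 were not analysed here, and the part of these markers in the receptor differences was not tested.

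Cx3cr1, the fractalkine receptor, stood at 0.856 and 0.212 RPKM in TRAIL+ libraries (13 and 3 reads) and at 61.2 and 68.7 RPKM in CD49b+ libraries (966 and 1008 reads). The subsets lay far apart, and the log2 fold change was -5.46 ± 0.26 (SE, adjusted p = 0.000605 by limma), the 16th largest of 10047 in size. The ratio of means was 122-fold lower in TRAIL+ cells, and 306-fold without TRAIL+ replicate 1 and 75.9-fold without TRAIL+ replicate 2, since it rests on 16 TRAIL+ reads. The log2 fold change was -6.89 with 0.1 added to RPKM in place of 1, and -7.09 with voom. The ratio of reads was 119, with an exact binomial 95% interval of 72.9 to 208.

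Cxcr4, the receptor for CXCL12, stood at 6.63 and 3.05 RPKM in TRAIL+ and 73.2 and 91.1 RPKM in CD49b+ libraries. The subsets did not overlap, and the log2 fold change was -3.89 ± 0.33 (SE, limma adjusted p = 0.00265). The means were 17.0-fold lower in TRAIL+ cells, 26.9-fold without TRAIL+ replicate 1 and 12.4-fold without TRAIL+ replicate 2.

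Ccr2, the receptor for CCL2 and of monocyte exit from the bone marrow, was the most abundant member in CD49b+ cells and remained well expressed in TRAIL+ cells. It stood at 69.2 and 88.1 RPKM in TRAIL+ and 189 and 216 RPKM in CD49b+ libraries, without overlap. The difference was smaller than that of the other called members, at 2.57-fold or -1.36 ± 0.19 in log2 (SE, limma adjusted p = 0.0125). Leaving out CD49b+ replicate 1 (adjusted p = 0.0763) or CD49b+ replicate 2 (adjusted p = 0.126) ended the call, within a range of 0.000153 to 0.126 over 13 alternatives. The other 5 called members kept their calls in every alternative run, except that Ccr8 was not tested at a minimum of 5 RPKM.

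Ccr2 and Cx3cr1 are also monocyte genes. Of 14 monocyte and Kupffer cell markers, 9 were tested and 1, Ly6c2, was called lower in TRAIL+ cells. Their summed level was 129 and 57.0 RPKM in TRAIL+ and 665 and 605 RPKM in CD49b+ libraries, and Ly6c2, which mature NK cells also express, made up 518 and 593 RPKM of the CD49b+ sums. Lyz2, the lysozyme gene, stood at 81.9 and 9.21 RPKM in TRAIL+ and 122 and 8.87 RPKM in CD49b+ libraries. Csf1r, a defining marker, stood at 4.60 and 0.813 RPKM in TRAIL+ and 2.73 and 0.130 RPKM in CD49b+ libraries, and Marco was at 0 in all 4. Some Kupffer cell markers, named after their values were seen, had more reads in TRAIL+ cells: C1qa had 41 in TRAIL+ and 6 in CD49b+ libraries (log2 fold change 1.93 ± 0.43, limma adjusted p = 0.0549, range 0.00179 to 0.177 over 12 alternatives, 5 of which called it), Clec4f 21 and 2, and Cd5l 36 and 13. The part of these markers in the differences of Ccr2 and Cx3cr1 was not tested.

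Ccrl2, the atypical chemerin receptor, stood at 37.4 and 40.4 RPKM in TRAIL+ and 28.5 and 24.0 RPKM in CD49b+ libraries. The values did not overlap, as those of 46.8% of tested genes did not, and the log2 fold change of 0.56 ± 0.17 (SE, 95% interval 0.13 to 0.98) missed the threshold (limma adjusted p = 0.138).

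Ccr7, which guides cells into lymph nodes, stood at 1.74 and 0.534 RPKM in TRAIL+ and 2.39 and 0.771 RPKM in CD49b+ libraries, with 4 to 20 reads a library. The subsets overlapped, and the log2 fold change of -0.26 ± 0.44 had a 95% interval of -1.36 to 0.84 (limma adjusted p = 0.852). Ccr1, a receptor of myeloid cells, had 2 and 0 reads in TRAIL+ and 2 and 1 reads in CD49b+ libraries and was near the limit of detection in both subsets.

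The receptor transcripts were also summed within each library to describe their make-up. The 9 genes summed to 972 and 1419 RPKM in TRAIL+ and 427 and 505 RPKM in CD49b+ libraries. Cxcr3 and Cxcr6 together took 87.8% and 90.3% of the sum in TRAIL+ and 17.0% and 20.7% in CD49b+ libraries. The top 2 genes of the CD49b+ libraries, Ccr2 with Cxcr4 in replicate 1 and with Cxcr3 in replicate 2, took 61.4% and 62.3%. There Ccr2 took 44.2% and 42.7%, Cxcr4 17.2% and 18.0%, Cxcr3 15.9% and 19.6% and Cx3cr1 14.3% and 13.6%.

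The order of levels differed between the subsets as well. In TRAIL+ cells Cxcr6 and Cxcr3 were followed by Ccr2, then Ccrl2, then Cxcr4 and Ccr8, which changed places between the libraries, then Ccr7, Cx3cr1 and Ccr1. In CD49b+ cells Ccr2 came first, then Cxcr3 and Cxcr4, which changed places, then Cx3cr1, Ccrl2, Cxcr6, Ccr7, Ccr1 and Ccr8. The ranges of Cxcr3 and Cx3cr1 in CD49b+ cells overlapped. The ratio of Cxcr6 to Cx3cr1 within a library was 490 and 3185 in TRAIL+ and 0.0754 and 0.0801 in CD49b+ libraries.

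**Figure D2:**
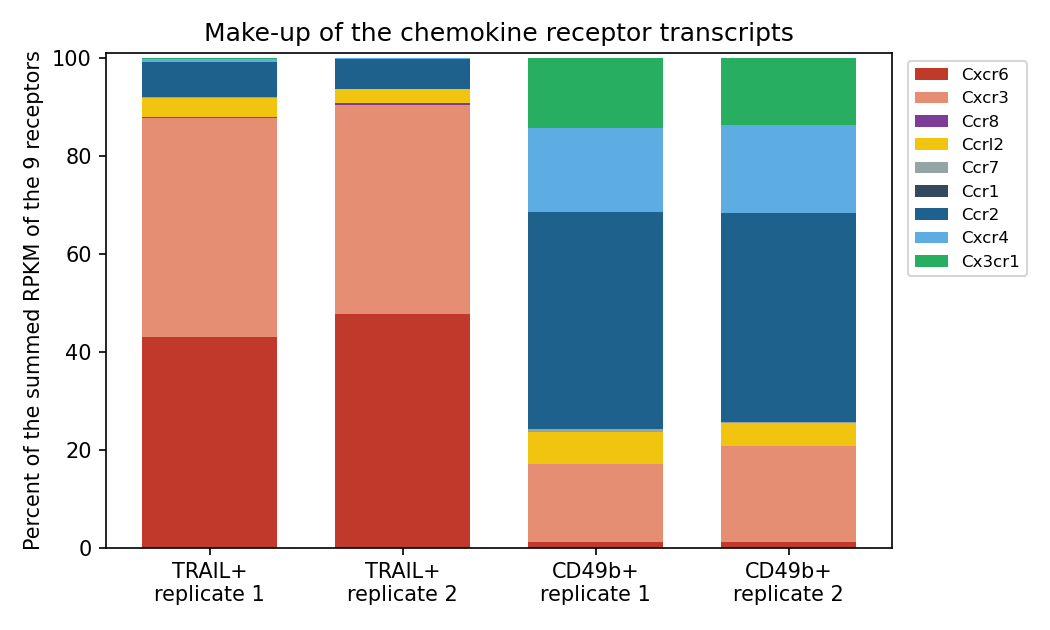
Share of each receptor gene in the summed RPKM of the 9 genes, one bar per library, TRAIL+ at the left. Cxcr6 and Cxcr3 fill 87.8% and 90.3% of the TRAIL+ bars and 17.0% and 20.7% of the CD49b+ bars, where Ccr2, Cxcr4 and Cx3cr1 take most of the rest.

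Beyond the members, 14 other chemokine receptor genes were listed, and most were low in these cells. In every library 12 of them stayed under 1 RPKM, among them Ccr1l1, Cxcr1, Ackr3 and Ackr4 with 0 reads. Xcr1 was the one among them that met the minimum for testing. How the authors' counting treated reads shared between similar receptor genes is not stated, so levels of receptors with near copies, such as Ccr2, are uncertain to that extent.

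Xcr1, the receptor for XCL1, stood at 2.98 and 3.20 RPKM in TRAIL+ and 0.106 and 0.0571 RPKM in CD49b+ libraries. It was higher in TRAIL+ cells (log2 fold change 1.92 ± 0.23, limma adjusted p = 0.00718), tested only through that subset (4.15 with 0.1 added in place of 1, and 4.86 with voom), with 108 reads in TRAIL+ and 3 in CD49b+ libraries. The ratio of reads was 37.4, with an exact binomial 95% interval of 12.5 to 184. Xcr1 also marks a dendritic cell type. Of 10 dendritic cell markers 4 were tested and 2, Xcr1 and Itgax, were higher in TRAIL+ cells. Itgax lost its call without CD49b+ replicate 1 (adjusted p = 0.335) and without CD49b+ replicate 2 (0.297), within a range of 0.00103 to 0.335. The list's sums of 538 and 370 RPKM in TRAIL+ and 282 and 200 RPKM in CD49b+ libraries came mostly from Itgax, which NK cells express, and Cd74. Among those not tested, named after their values were seen, Ciita had 55 reads in TRAIL+ and 12 in CD49b+ libraries, Cd209a 12 and 5, and Flt3 7 and 1. Zbtb46 had 27 reads in TRAIL+ and 56 in CD49b+ libraries, Siglech 1 and 6, and Clec9a 1 and 2. The part of dendritic cells in the difference of Xcr1 was not tested.

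On the genome, 6 of the 9 members and 14 of the 23 listed receptor genes lie on chromosome 9 among 1201 protein-coding genes, by RefSeq gene order on GRCm38.p6. Some neighbouring receptor genes there differed in opposite ways and others in the same way. Cx3cr1 and Ccr8 are adjacent, and Cx3cr1 was lower and Ccr8 higher in TRAIL+ cells. On their outer sides, Xirp1 had at most 0.0404 RPKM, and Slc25a38, a mitochondrial carrier, stood at 13.8 and 14.1 RPKM in TRAIL+ and 16.7 and 14.4 RPKM in CD49b+ libraries (log2 fold change -0.14 ± 0.18, limma adjusted p = 0.777).

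A second group on the same chromosome holds, in this order, Cxcr6, Xcr1, Ccr1, Ccr1l1, Ccr3 and Ccr2. Cxcr6 and the adjacent Xcr1 were both higher in TRAIL+ cells, Ccr1, Ccr1l1 and Ccr3 were at or near 0, and Ccr2 was lower. Fyco1, on the other side of Cxcr6, stood at 4.53 and 1.60 RPKM in TRAIL+ and 2.98 and 1.16 RPKM in CD49b+ libraries (log2 fold change 0.37 ± 0.47, limma adjusted p = 0.786). It was named after its value was seen.

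**Figure D3:**
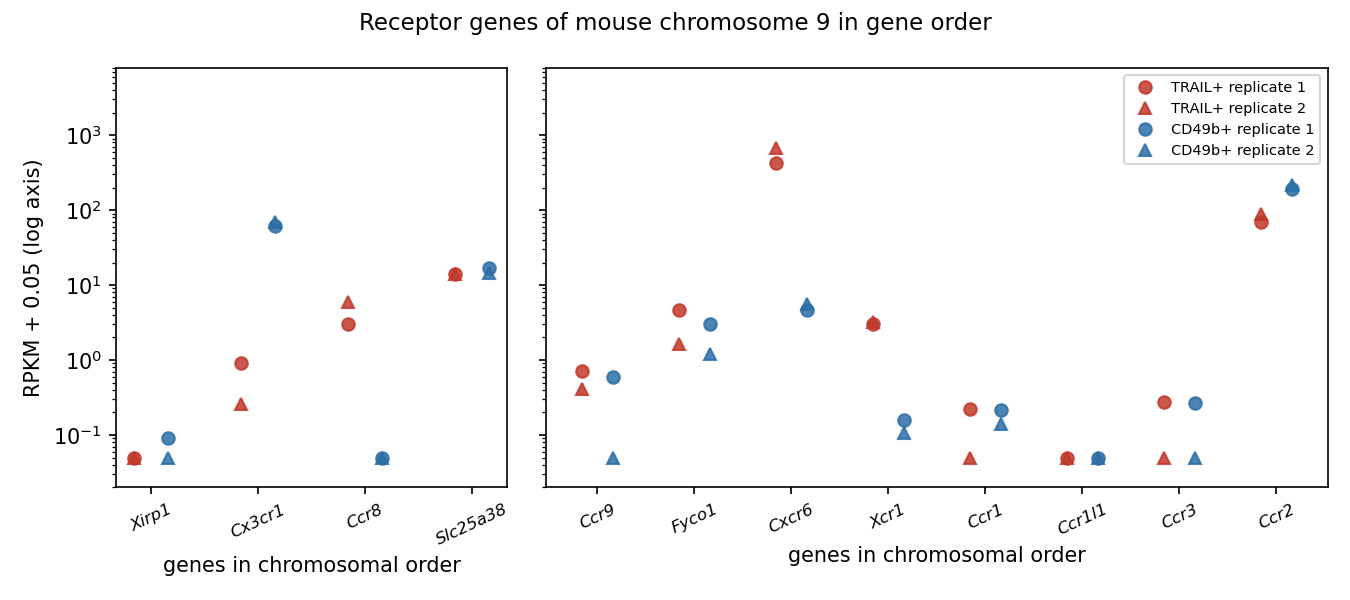
RPKM in each library (log axis, 0.05 added) of receptor genes and their neighbours on mouse chromosome 9, in gene order and not to distance. TRAIL+ libraries are red and CD49b+ libraries blue, circles are replicate 1 and triangles replicate 2. At the left, Cx3cr1 is high in CD49b+ and the adjacent Ccr8 is detected in TRAIL+ libraries only. At the right, Cxcr6 and Xcr1 are higher in TRAIL+ libraries, and Ccr2 is lower.

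Genes whose levels most resembled each called member were found by the Euclidean distance between log2(RPKM + 1) values over the 4 libraries. Nearest to Cxcr6 were the granzyme gene Gzmc (distance 0.576), the CD3 subunit gene Cd3g (1.53) and Tnfsf10 (2.18), a gate gene. Nearest to Cxcr3 were the lymphotoxin gene Ltb (0.571), the G protein signalling regulator Rgs1 (0.655) and Gimap7 (0.929). Nearest to Ccr8 were Gm12253 (0.293), Zmat4 (0.379) and the neurotrophin gene Ntf5 (0.510). Among genes lower in TRAIL+ cells, Cx3cr1 lay nearest to Rap1gap2 (0.488), the adhesion molecule gene Mcam (0.678) and the sphingosine phosphate receptor gene S1pr1 (1.05), which acts in lymphocyte egress. Cxcr4 lay nearest to Pogk (1.09), the phosphatidate phosphatase gene Lpin1 (1.15) and Pdlim1 (1.17), and Ccr2 to Selenop (0.110), the tetraspanin gene Cd9 (0.224) and Hsd11b1 (0.287). With 4 libraries in 2 groups, many called genes share such a pattern, and the distance is a description.

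Many ligands of these receptors were at low levels in the sorted cells. Of 19 listed, Ccl19 and Ccl21a were not analysed here, and 10 of the other 17 stayed under 1 RPKM in every library. Cxcl11, Ccl7 and Ccl8 had 0 reads. Over the 4 libraries, Cxcl12, the ligand of CXCR4, had 3 reads, Cx3cl1 had 5 reads in TRAIL+ and 0 in CD49b+ cells, and Cxcl16, the ligand of CXCR6, stood at 0.701 and 0.431 RPKM in TRAIL+ and 0.193 and 0 RPKM in CD49b+ libraries. Of 7 ligands tested, 1 was higher and 1 lower in TRAIL+ cells, where 4.76% and 3.86% of all genes tested were. The median log2 fold change of the ligands was -0.19, against 0.005 over all genes tested.

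Ccl1, a ligand of CCR8, was the ligand that was higher. It stood at 11.6 and 9.36 RPKM in TRAIL+ and 0.465 and 0 RPKM in CD49b+ libraries (42 reads against 1), so the ligand and its receptor Ccr8 were both higher in TRAIL+ cells. The log2 fold change was 3.24 ± 0.28 (SE, limma adjusted p = 0.00279), tested only through the TRAIL+ libraries. It was 5.47 with 0.1 added in place of 1, and 4.67 with voom. The ratio of reads was 43.6, with an exact binomial 95% interval of 7.42 to 1764.

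Ccl9, a ligand of CCR1, was lower in TRAIL+ cells. It stood at 0.408 and 0.0877 RPKM in TRAIL+ and 6.04 and 7.60 RPKM in CD49b+ libraries, a log2 difference of -2.65 ± 0.26 (SE, limma adjusted p = 0.00372), tested only through the CD49b+ libraries. The log2 difference was -4.48 with 0.1 added in place of 1, and -4.79 with voom. The ratio of means was 27.5-fold, and 77.8-fold without TRAIL+ replicate 1 and 16.7-fold without TRAIL+ replicate 2. Its receptor Ccr1 was near 0 in both subsets.

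The abundant ligands did not pass the test. Ccl5 stood at 7317 and 12464 RPKM in TRAIL+ and 8903 and 11938 RPKM in CD49b+ libraries (log2 fold change -0.11 ± 0.48, limma adjusted p = 0.951). Ccl4 stood at 867 and 512 RPKM in TRAIL+ and 871 and 667 RPKM in CD49b+ libraries (-0.19 ± 0.32, limma adjusted p = 0.846). Ccl3 stood at 303 and 157 RPKM in TRAIL+ and 615 and 329 RPKM in CD49b+ libraries, without overlap (-1.04 ± 0.43, limma adjusted p = 0.266). It passed without TRAIL+ replicate 1 (adjusted p = 0.0289) and with a replicate block (0.00115), within a range of 0.00115 to 1.00 over 13 alternatives.

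The receptors share a signalling machinery of G proteins, kinases and integrin activators. Of 34 of its genes listed, 31 were tested, of which 1 was higher and 3 were lower in TRAIL+ cells and 27 were not called, where 8.62% of all genes tested were called in either direction. The list had a median log2 fold change of -0.11 and a range of -1.75 to 1.37. Rasgrp2, which activates the integrin switch Rap1, stood at 12.7 and 14.6 RPKM in TRAIL+ and 54.0 and 43.0 RPKM in CD49b+ libraries (-1.75 ± 0.19, limma adjusted p = 0.00533), and kept its call in all 13 alternatives. Pik3r5, a regulatory subunit of PI3-kinase gamma, stood at 24.1 and 14.0 RPKM in TRAIL+ and 61.3 and 51.2 RPKM in CD49b+ libraries (-1.55 ± 0.28, limma adjusted p = 0.0286). It no longer passed when CD49b+ replicate 1 (adjusted p = 0.122) or replicate 2 (0.0650) was left out, or with no minimum level (0.0596), within a range of 0.000231 to 0.122.

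Elmo1, which acts with the Rac activator Dock2, stood at 25.2 and 23.7 RPKM in TRAIL+ and 52.5 and 52.2 RPKM in CD49b+ libraries, a log2 difference of -1.07 ± 0.15 (limma adjusted p = 0.0129). Gng2, a G protein gamma subunit, was the member of this list that was higher, at 93.6 and 90.7 RPKM in TRAIL+ and 35.7 and 34.4 RPKM in CD49b+ libraries (1.37 ± 0.15, limma adjusted p = 0.00533). Elmo1 no longer passed when CD49b+ replicate 1 (adjusted p = 0.175) or replicate 2 (0.170) was left out, within a range of 0.000671 to 0.175. The same held for Gng2 (0.0632 and 0.0753, range 0.000127 to 0.0753).

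The most abundant signalling genes did not pass. Coro1a, an actin regulator, stood at 1150 and 1343 RPKM in TRAIL+ and 1217 and 1211 RPKM in CD49b+ libraries. Rac2, a small GTPase of blood cells, stood at 677 and 823 RPKM in TRAIL+ and 720 and 803 RPKM in CD49b+ libraries, and the GTPase gene Cdc42 at 561 and 834 RPKM in TRAIL+ and 689 and 856 RPKM in CD49b+ libraries. Gnai2, the main Gi alpha subunit of lymphocytes, named after its values were seen, stood at 532 and 548 RPKM in TRAIL+ and 581 and 566 RPKM in CD49b+ libraries. In log2, TRAIL+ minus CD49b+ was -0.09 ± 0.19 (95% interval -0.56 to 0.38, limma adjusted p = 0.887). Rap1b, a Rap1 gene also named after its values were seen, differed more but did not pass either. It stood at 324 and 439 RPKM in TRAIL+ and 696 and 808 RPKM in CD49b+ libraries. Its log2 fold change was -0.99 ± 0.24 (95% interval -1.58 to -0.4, limma adjusted p = 0.0686).

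**Figure D4:**
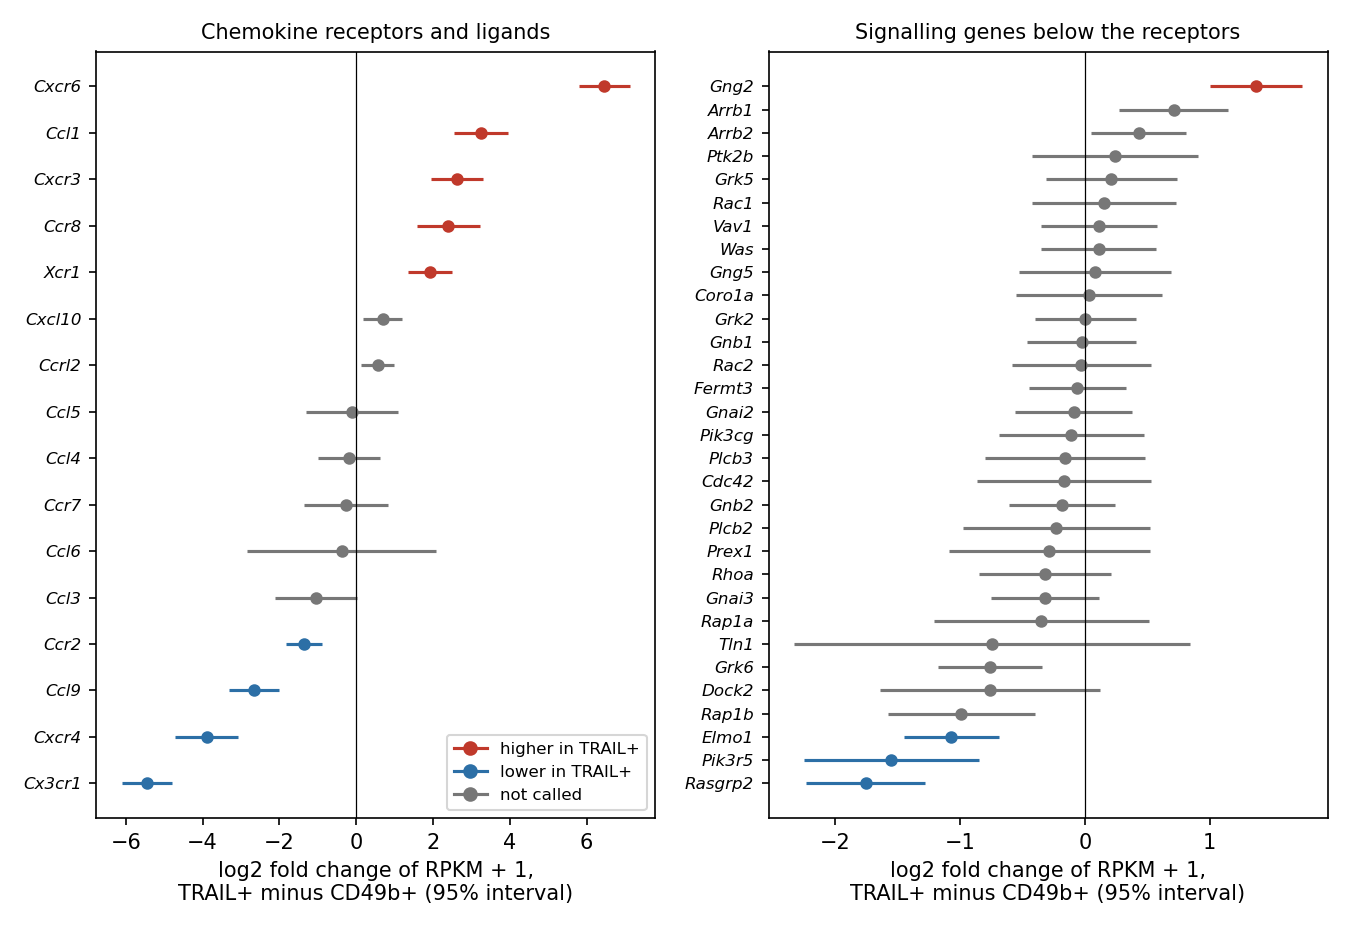
Log2 fold changes of RPKM + 1, TRAIL+ minus CD49b+, with 95% intervals from limma, for the tested receptors and ligands (left) and signalling genes (right). Red marks genes called higher and blue genes called lower in TRAIL+ cells, grey those not called. Receptors run from -5.46 for Cx3cr1 to 6.46 for Cxcr6, signalling genes from -1.75 for Rasgrp2 to 1.37 for Gng2.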

How the data were processed

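RNA of natural killer cells sorted from mouse liver was sequenced in 4 libraries, 2 of TRAIL+ and 2 of CD49b+ cells, with groups and replicate numbers taken from their titles. Per the file headers, the authors deposited RPKM. The submitters' processing notes name TopHat 1.4.1 and the mm9 genome. How reads were counted, with which annotation and filters, and whether strand was used is not given in these sources. Rows were named through RefSeq genes of GRCm38.p6 (20657 of 21025 by accession, 194 by symbol, 65 by synonym, 109 under the name in the file).

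Whole reads were worked out from the RPKM steps for 100% of the 13681 rows above 0, within a relative tolerance of 1e-06. The steps give only the smallest possible length of a row. A multiple of it was taken where that came within 5% of the known length. Where a row had 1 accession with a known length (10859 rows), the length used lay within 10% of it in 79.0%. Because the known length helped to choose the length used, this share is not an independent check. The reads behind the RPKM were 4071617 and 3786497 in TRAIL+ replicates 1 and 2, and 4232967 and 3933014 in CD49b+ replicates 1 and 2. The reads recovered for all rows summed to slightly more in every library, 3856915 to 4310183, and the cause was not tested. Intervals and floors on reads cover counting error only.

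Genes with at least 1 RPKM in at least 2 libraries (10047) were tested with limma 3.58.1 (R 4.3.3) on log2(RPKM + 1) (trended prior, prior degrees of freedom 3.51, residual 2, no block), with Benjamini-Hochberg adjustment over all genes and a threshold of 0.05. The script was tested on simulated data. Members and lists were chosen with earlier results of these data known. One listed item is not reported here and was left out of the list counts, though not of the fit. The genes named are the members, the called genes of each list (up to 6 a direction), its 3 most abundant genes that were not called, the gate genes, the 2 most abundant markers of each other cell type, the 3 genes nearest to each called member, and genes flanking adjacent members. Alternatives were pseudocounts of 0.1 and 0.5, no minimum and a minimum of 5 RPKM, quantile and median scaling, a prior without trend, voom on the reads, a replicate block, and each library left out.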

Additional observations from a re-analysis of the deposited data

How the results depend on the processing

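Over all genes, called genes numbered 478 higher and 388 lower in TRAIL+ cells, and 245 to 777 higher and 198 to 763 lower with 1 library left out. Voom on the whole reads called 485 higher and 401 lower. Of 102 repeats of the members' tests, 99 had the same outcome, called or not called, 2 lost the call (Ccr2) and 1 gained it (Ccrl2). No called member changed direction. The log2 fold change of Ccr7, which was not called, ran from -0.73 to 0.21 over the alternatives and so changed sign. With a minimum of 5 RPKM, Ccr7, Ccr8 and Xcr1 were not tested, so 0 other receptors were called higher. With 1 library left out, 1 to 2 ligands were lower, and 0 to 1 signalling genes were higher and 1 to 6 lower. The causes were not tested. Levels under about 1 RPKM rest on few reads, which limits Ccr1, Ccr7, Ccr8 and the TRAIL+ level of Cx3cr1.

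The groups share replicate numbers, and the labels do not say that the numbers pair the libraries. Over 10047 genes, the deviations of replicate 1 from the group mean correlated between the subsets at r = 0.563 (across genes, which are not independent). With a replicate block, calls numbered 1049 higher and 833 lower, ligands 2 higher and 2 lower, and signalling genes 3 higher and 7 lower. Ccrl2 (log2 fold change 0.56, adjusted p = 0.0322) and Ccl3 (-1.04, adjusted p = 0.00115) then passed. The block ended no call of a member.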
